A study of Drosophila melanogaster with 9 samples.

Results

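The 115 genes described here are the members of the fly pathway for protein processing in the endoplasmic reticulum (ER), out of 17611 genes in the deposited count table. They were taken from the pathway column of that table, which names 122 genes for this pathway, by a rule that uses no measured value. Of those 122, 3 heat-shock genes (Hsp68, Hsp83 and Hsc70-4) and 4 genes of the COPII vesicle coat (Sec13, Sec23, Sec31 and Sar1) were left out by the rule. Measured were Malpighian tubules, the renal organ of Drosophila melanogaster, in 3 groups of 3 libraries each. Every fly carried the driver esg-Gal4, its temperature-sensitive inhibitor tub-Gal80ts and the reporter UAS-GFP. To these, ITP-i flies added both UAS-Yki-3SA and UAS-ITP-i, the second of which silences the hormone gene ITP by RNA interference. The yki3SA flies added UAS-Yki-3SA, which encodes active Yorkie, a promoter of growth, and control flies added no further transgene. All 3 groups were virgin progeny, held at 18 °C for 6 to 8 days and at 29 °C for a further 8 days, the temperature at which Gal80ts no longer blocks Gal4. RNA of each genotype came from 80 tubules. The driver esg-Gal4 is active in stem and progenitor cells of the gut and also of the tubule, so the transgenes could act in both organs, and no group carried a neutral RNAi transgene. Nothing in the labels ties the libraries of a group to separate cultures or dissections, so every p-value measures only the spread between these libraries, which may be technical. In addition, a remark of re-analysis stands in the titles of all yki3SA and control libraries and of no ITP-i library, so a batch and the ITP-i genotype cannot be told apart.

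Secreted and membrane proteins enter the ER through the Sec61 channel, receive N-linked glycans from the oligosaccharyltransferase, and fold with the help of Hsp70-type and lectin chaperones and disulfide isomerases. Proteins that fail to fold are marked with ubiquitin by ligases in the ER membrane, pulled into the cytosol by the AAA ATPase TER94 (p97 or VCP in mammals) and degraded by the proteasome. When unfolded proteins accumulate, the sensors Ire1, PEK and Atf6 start the unfolded protein response, which slows translation and raises the transcription of chaperone genes. The pathway list also holds cytosolic proteins, among them Hsp70 family chaperones and subunits of the SCF ubiquitin ligase. Members were sorted by known function into 7 roles, of which degradation, with 38 genes, is the most numerous.

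Total counts per library were between 34640437 and 49338340, and levels below are CPM, counts set to a common library total, here with the trimmed-mean (TMM) factors of edgeR. ITP had 51.7, 63.7 and 60.4 CPM in ITP-i tubules, 56.8, 77.0 and 71.2 CPM in yki3SA tubules and 32.7, 33.5 and 44.7 CPM in control tubules. ITP was thus not called lower in ITP-i than in yki3SA tubules (log2 -0.22 ± 0.16 SE, adjusted p = 0.348 in edgeR's quasi-likelihood test), and it was higher than in control tubules (log2 0.67, adjusted p = 0.0269). The driver limits the knockdown to its own cells, so counts of whole tubules do not test it, and the gut was not analysed here. Levels of yki, whose counts cannot separate the transgene from the native gene, were 67.6 to 84.6 CPM in ITP-i, 74.7 to 89.7 CPM in yki3SA and 63.0 to 78.8 CPM in control tubules. Markers of tubule principal cells summed to 13499 to 14720 CPM of total counts in ITP-i, 13619 to 15276 CPM in yki3SA and 14476 to 15744 CPM in control libraries. Of these 11 markers, 1 was higher and 3 were lower in yki3SA than in control. The 6 markers of tubule stellate cells summed to 917 to 1055 CPM in ITP-i, 1094 to 1179 CPM in yki3SA and 1132 to 1347 CPM in control libraries. Of these 6, 2 were lower in yki3SA than in control. Markers of other tissues moved with the groups. The 15 fat body markers summed to 2073 to 3640 CPM in ITP-i, 324 to 552 CPM in yki3SA and 2532 to 5480 CPM in control libraries. Of these, 8 were lower and 2 higher in yki3SA than in control, and 7 higher and 3 lower in ITP-i than in yki3SA. The 32 gut enterocyte markers, of which 1 was at 0 in every library, summed to 209 to 534 CPM in ITP-i, 40.6 to 157 CPM in yki3SA and 428 to 1134 CPM in control libraries. The 19 ovary markers summed to 57.4 to 197 CPM in ITP-i, 12.2 to 93.3 CPM in yki3SA and 147 to 318 CPM in control libraries. The 11 hemocyte markers summed to 53.8 to 82.4 CPM in ITP-i, 50.3 to 53.9 CPM in yki3SA and 94.4 to 151 CPM in control libraries. How much these tissues contribute to the differences below was not tested, and in bulk tubules fewer cells of a type and less RNA per cell cannot be told apart.

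Tubules of yki3SA flies had more transcript of the ubiquitin and TER94 end of the pathway and less of Sec61alpha, which forms the ER entry channel, and of the kinase PEK. No chaperone of the ER lumen was called in any comparison by the reported edgeR fit. In ITP-i against yki3SA, other fits of all libraries called some lower, among them Gp93 with a replicate block and Calr by DESeq2 and limma-voom. Without ITP-i library 3, Grp170, Sil1, shv and Calr were called lower in that comparison. The level of Hsc70-3 differed more between libraries of a group than between the groups. Of the 115 members, 103 had enough counts to be tested. In yki3SA against control tubules, 22 of these 103 (21.4%) were called higher and 6 (5.83%) lower at an adjusted p under 0.05. Of all 10253 genes tested, 16.2% were called higher and 14% lower, 30.1% in all. In ITP-i against yki3SA tubules, 9 members (8.74%) were higher and 13 (12.6%) lower, against 10.6% higher and 10.1% lower, or 20.7% in all, of the genes tested. Single libraries moved these counts, to 3 higher and 4 lower without ITP-i library 1, and 6 higher and 6 lower without ITP-i library 2 or without yki3SA library 2, and 7 higher and 8 lower without yki3SA library 3. Calls over all genes also became fewer, with 5.92% higher and 3.87% lower without ITP-i library 1 and 7.42% and 4.99% without ITP-i library 2. Without yki3SA library 2 these shares were 7.97% and 5.04%, and without yki3SA library 3 they were 7.80% and 6.01%. In yki3SA against control the higher count was 13 or 14 without control library 1, 2 or 3 or yki3SA library 2 or 3, and the lower count was 3 without control library 3. In these fits 9.89% to 12.3% of all genes were higher, and 11.1% were lower without control library 3. In ITP-i against control tubules, 5 members (4.85%) were higher and 0 lower, against 6.37% higher and 4.14% lower, or 10.5% in all, of the genes tested. Leaving out ITP-i library 1 or 3, or any 1 control library, reduced the 5 to 2 or 3, and 2 were lower without ITP-i library 3. In these fits 4.02% to 5.63% of all genes were higher, and 3.25% were lower without ITP-i library 3. At an unadjusted p under 0.05, 4 members were lower in that last comparison by edgeR, and DESeq2 and limma-voom also called 0 lower. The median log2 fold change of the tested members was 0.16 in yki3SA against control, -0.09 in ITP-i against yki3SA and 0.01 in ITP-i against control, beside 0.07, -0.04 and 0.00 over all genes. Called differences of at least 2-fold were rare. In yki3SA against control 1 member was higher and 0 lower, beside 5.13% and 7.48% of all genes. In ITP-i against yki3SA 3 were higher and 0 lower, beside 6.45% and 2.17%, and in ITP-i against control 3 and 0, beside 4.5% and 1.93%. These comparisons share libraries, so they are given side by side and not as independent evidence of each other. A covariate for the fat body or the gut marker level left 0 members called in yki3SA against control and in ITP-i against yki3SA, while standard errors grew. On the log2 scale the fat body level was 8.35 to 9.11 in yki3SA and 11.0 to 12.4 in the other libraries. The gut level was 5.38 to 7.30 in yki3SA and 7.71 to 10.1 in the others. Both nearly coincide with the yki3SA group, so these fits cannot separate marker level from group. The members' median was 0.24 with the fat body and 0.30 with the gut covariate in yki3SA against control, and -0.24 and -0.21 in ITP-i against yki3SA. The log2 fold change of TER94 in yki3SA against control was 0.55 ± 0.42 (SE) with the fat body and 0.79 ± 0.25 with the gut covariate, that of Sec61alpha -0.46 ± 0.46 and -0.53 ± 0.28, and that of PEK -1.62 ± 0.58 and -1.43 ± 0.34. Of all 10253 genes the fat body covariate left 12 called in yki3SA against control and 4 in ITP-i against yki3SA, and the gut covariate 127 and 152 in the same order. Scaling by total counts in place of TMM moved the median of all genes by 0.29 in yki3SA against control and by -0.20 in ITP-i against yki3SA. It gave 46 members higher and 2 lower in yki3SA against control and 7 higher and 32 lower in ITP-i against yki3SA.

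**Figure D1:**
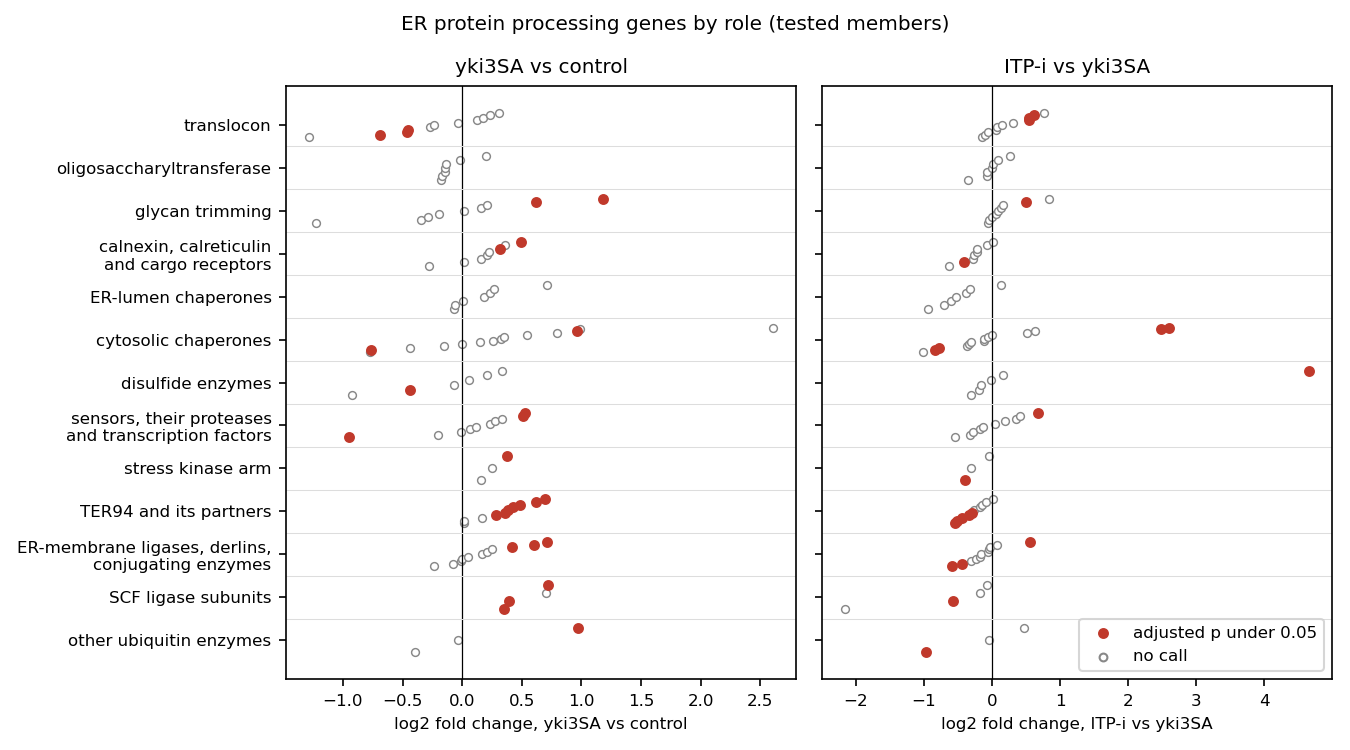
Log2 fold change of each of the 103 tested members (x axis) by functional group (y axis), in yki3SA against control on the left and ITP-i against yki3SA on the right. Filled red points passed an adjusted p under 0.05 and open points did not. The red points of the TER94 group lie at 0.29 to 0.70 on the left and at -0.54 to -0.30 on the right, and the 3 red translocon points lie below 0 on the left and above 0 on the right.

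Degradation genes were the role with the most calls. In yki3SA against control tubules, 14 of the 28 tested members rose and 0 fell (edgeR, where 0 also had an unadjusted p under 0.05 in that direction, and 0 fell by DESeq2 and limma-voom), with a median log2 fold change of 0.32. Of all genes, 16.2% rose and 14% fell there. In ITP-i against yki3SA tubules, 9 of the 28 fell and 1 rose, with a median of -0.18, beside 10.1% lower and 10.6% higher of all genes. Without control library 2 or 3 or yki3SA library 2 or 3, 8 or 9 of the 28 rose in yki3SA against control, and without ITP-i library 1 or 2 or yki3SA library 1, 2 or 3, 4 to 6 fell in ITP-i against yki3SA. Calls over all genes were also fewer in these fits, with 10.3% to 12.3% higher in the first comparison and 3.87% to 6.48% lower in the second. In ITP-i against control tubules, 2 of the 28 rose, beside 6.37% of all genes, and the median was 0.05. DESeq2 called 12 and limma-voom 13 of the 28 higher in yki3SA than in control. The groups of libraries did not overlap for 15 higher and 1 lower of these 28 genes in yki3SA against control, where the same was so for 26% and 19.8% of all genes.

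The group around TER94 (FBgn0286784), the ATPase that pulls ubiquitinated proteins out of the ER membrane, rose in 7 of 10 tested genes in yki3SA against control and fell in 5 in ITP-i against yki3SA. Of all genes, 16.2% rose in the first comparison and 10.1% fell in the second. The 7 were 4 without control library 2 or 3 or yki3SA library 2 or 3, and the 5 were 0 without ITP-i library 1, 1 without ITP-i library 2 or yki3SA library 2, 2 without yki3SA library 1, and 3 without yki3SA library 3 or control library 3. In the same fits 10.3% to 12.3% of all genes rose in the first comparison and 3.87% (without ITP-i library 1) to 7.71% (without control library 3) fell in the second. TER94 had 383, 383 and 389 CPM in ITP-i tubules, 505, 547 and 522 CPM in yki3SA tubules and 376, 342 and 309 CPM in control tubules. All 3 yki3SA libraries lay above the other 6, and the 3 ITP-i libraries nearly coincided. The log2 fold change of TER94 was 0.62 ± 0.11 (SE, n = 3 each, adjusted p = 0.00246, edgeR) in yki3SA against control and -0.45 ± 0.11 (adjusted p = 0.0172) in ITP-i against yki3SA. Ufd1 with Npl4 forms the adaptor that brings ubiquitinated substrates to TER94. Ufd1 had 26.9, 32.1 and 32.1 CPM in ITP-i tubules, 51.7, 41.9 and 38.9 CPM in yki3SA tubules and 28.1, 28.9 and 24.7 CPM in control tubules. Its libraries were separated between yki3SA and each other group, with log2 fold changes of 0.70 (adjusted p = 0.00491) and -0.54 (adjusted p = 0.0233, edgeR). The adaptor p47 directs the ATPase to membrane fusion. The p47 gene had 58.2, 57.98 and 64.5 CPM in ITP-i tubules, 92.9, 83.8 and 82.4 CPM in yki3SA tubules and 68.1, 54.7 and 62.7 CPM in control tubules. It rose by 0.48 and fell by 0.52 on the log2 scale in the same pair of comparisons (adjusted p = 0.00928 and 0.0104, edgeR).

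Ubqn, Pngl, Rad23 and Npl4 of the same group also rose in yki3SA against control. Ubqn is a ubiquilin that carries ubiquitinated proteins to the proteasome. Ubqn had 179, 189.5 and 178 CPM in ITP-i tubules, 229.8, 232 and 229 CPM in yki3SA tubules and 184, 178 and 178 CPM in control tubules. Its spread within a group was small beside the difference of 0.36 (log2, adjusted p = 0.0137) in yki3SA against control and -0.34 (adjusted p = 0.0244, edgeR) in ITP-i against yki3SA. Pngl, the fly member of the peptide N-glycanase family, changed by 0.43 and -0.30, Rad23, a second shuttle to the proteasome, by 0.38 and -0.14, and Npl4 by 0.29 and -0.18 in yki3SA against control and ITP-i against yki3SA. Of these later values, the one for Pngl passed the test (adjusted p = 0.0425, edgeR) and those for Rad23 (0.336) and Npl4 (0.19) did not. No call was made for the ubiquitin chain-extending enzyme Ube4B, the deubiquitinase Yod1 or Plap, the phospholipase A2 activating protein homologue, whose log2 values lay between 0.01 and 0.16 in yki3SA against control. In yki3SA against control, the calls of TER94, Ufd1, p47 and Pngl held in each fit that left out 1 library. The call of Rad23 ended without yki3SA library 1, 2 or 3 or control library 2 or 3 (log2 0.29 to 0.38). That of Ubqn ended without yki3SA library 2 or 3 or control library 1, 2 or 3 (log2 0.32 to 0.34), and that of Npl4 without ITP-i library 1 or 2, yki3SA library 1, 2 or 3 or control library 2 or 3 (log2 0.21 to 0.29). In ITP-i against yki3SA, the call of TER94 ended without ITP-i library 1 or 2 or yki3SA library 2 (log2 -0.44 to -0.40). In the same comparison the call of Ufd1 ended without ITP-i library 1 or 2 or yki3SA library 1 or 2 (log2 -0.57 to -0.39), and that of p47 without ITP-i library 1 (log2 -0.50). Ubqn lost its call without ITP-i library 1, 2 or 3, yki3SA library 1, 2 or 3 or control library 3 (log2 -0.35 to -0.31). Pngl lost its call without ITP-i library 1 or 2, yki3SA library 1, 2 or 3 or control library 1, 2 or 3 (log2 -0.31 to -0.24).

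Among the single-protein ubiquitin ligases, STUB1 and sordd1 rose in yki3SA against control and fell in ITP-i against yki3SA. STUB1 (FBgn0027052, CHIP in mammals) marks clients of Hsp70 for degradation. STUB1 had 15.9, 16.2 and 21.4 CPM in ITP-i tubules, 34.0, 31.7 and 39.6 CPM in yki3SA tubules and 16.6, 18.9 and 18.2 CPM in control tubules. The 3 yki3SA libraries stood above all others, and the ITP-i and control libraries overlapped. Its log2 fold change was 0.97 ± 0.15 (adjusted p = 0.00135, edgeR) in yki3SA against control and -0.98 ± 0.15 (adjusted p = 0.00233) in ITP-i against yki3SA. The RING ligase sordd1, related to the ER-membrane ligases RNF5 and RNF185 of mammals, had 65.3, 65.6 and 66.5 CPM in ITP-i tubules, 113, 90.5 and 92.6 CPM in yki3SA tubules and 65.2, 63.3 and 67.1 CPM in control tubules. Its 6 libraries outside yki3SA lay between 63.3 and 67.1 CPM, with log2 fold changes of 0.60 (adjusted p = 0.00249) and -0.58 (adjusted p = 0.00477, edgeR). Its close relative sordd2 had 18.7, 17.6 and 22.6 CPM in ITP-i tubules, 15.0, 12.7 and 12.3 CPM in yki3SA tubules and 10.6, 10.4 and 13.7 CPM in control tubules. In contrast to sordd1, sordd2 was highest in ITP-i tubules, by 0.55 over yki3SA (log2, adjusted p = 0.0399) and by 0.76 over control (adjusted p = 0.0163, edgeR). The first of these calls ended without ITP-i library 1, 2 or 3 or yki3SA library 2 or 3 (log2 0.44 to 0.64), and the second without ITP-i library 3 or control library 1 or 2 (log2 0.65 to 0.69). The first also ended by total counts (log2 0.37, adjusted p = 0.146, edgeR) and with no filter (log2 0.56, adjusted p = 0.0575).

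The conjugating enzymes that serve ER ligases moved in part. CG5823 is the counterpart of the mammalian ER-membrane enzyme UBE2J2. CG5823 had 55.9, 51.0 and 55.1 CPM in ITP-i tubules, 58.7, 68.4 and 73.3 CPM in yki3SA tubules and 44.2, 39.5 and 38.7 CPM in control tubules. Both tumour groups lay above the control libraries, by 0.41 in ITP-i (log2, adjusted p = 0.0472) and by 0.71 in yki3SA (adjusted p = 0.00144, edgeR). The ITP-i against control call of CG5823 ended without ITP-i library 1, 2 or 3, yki3SA library 2 or 3 or control library 1, 2 or 3 (log2 0.35 to 0.46). CG40045, a UBE2G1-type enzyme, changed by 0.41 in yki3SA against control (adjusted p = 0.0197) and by -0.44 in ITP-i against yki3SA (adjusted p = 0.0224, edgeR). The first of these calls ended without yki3SA library 1 or 3 or control library 1, 2 or 3 (log2 0.31 to 0.41), and the second without ITP-i library 1 or 2 or yki3SA library 1 or 3 (log2 -0.43 to -0.34). Ubc7 had 73.6, 73.1 and 82.8 CPM in ITP-i tubules, 95.3, 81.9 and 81.7 CPM in yki3SA tubules and 71.0, 73.6 and 72.6 CPM in control tubules. It was not called, and 38.8% of its exon length overlaps another gene.

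Of the SCF ligase, which joins a cullin, a RING protein and a Skp adaptor, 3 of 4 tested subunits rose in yki3SA against control. The share of all genes called higher there was 16.2%. SkpA had 138, 143 and 139 CPM in ITP-i tubules, 236, 198 and 191 CPM in yki3SA tubules and 130.4, 127 and 123 CPM in control tubules. Its yki3SA libraries were apart from all others, with log2 fold changes of 0.72 ± 0.11 (adjusted p = 0.00095) in yki3SA against control and -0.57 ± 0.10 (adjusted p = 0.00543, edgeR) in ITP-i against yki3SA. The scaffold Cul1 changed by 0.35 (adjusted p = 0.0367) and the RING subunit Roc1a by 0.39 (adjusted p = 0.0441, edgeR) in yki3SA against control, and neither was called in ITP-i against yki3SA. The call of Cul1 ended without ITP-i library 1 or 2, yki3SA library 2 or 3 or control library 1, 2 or 3 (log2 0.26 to 0.38). That of Roc1a ended without any 1 of the 9 libraries (log2 0.22 to 0.45). Both calls also ended with DESeq2 size factors, upper-quartile scaling, no filter and a fit of only the groups compared, and that of Roc1a by DESeq2. SkpA kept its call in each of these. SkpB stayed under 1 CPM in every library, and SkpC, SkpD, SkpE and SkpF under 0.2 CPM.

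**Figure D2:**
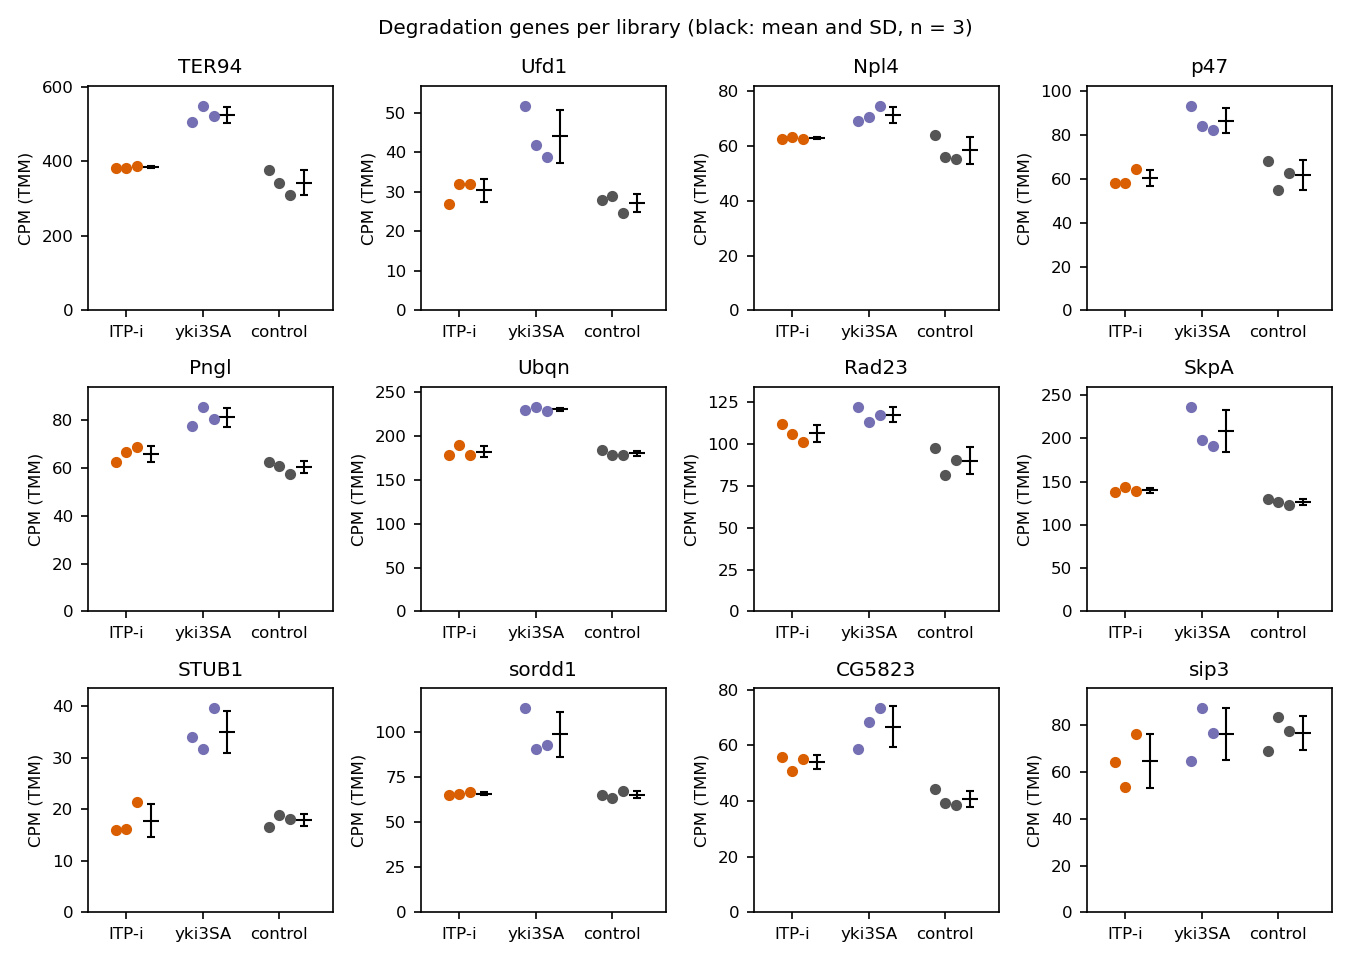
CPM with TMM scaling (y axis, from 0) of 12 degradation genes in each library, with ITP-i, yki3SA and control from left to right (x axis) and the mean and SD of 3 libraries in black. For TER94, Ufd1, p47, Ubqn, SkpA, STUB1 and sordd1 the 3 yki3SA points lie above the 6 others, and for sip3 the groups overlap.

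The members of the ligase complex that defines ER-associated degradation, sip3, Hrd3, Der-1 and Der-2, were not called in any comparison. The ER-membrane ligase sip3 (Hrd1 in mammals) had 64.4, 53.5 and 76.5 CPM in ITP-i tubules, 64.8, 87.3 and 76.9 CPM in yki3SA tubules and 69.1, 83.7 and 77.8 CPM in control tubules, and the groups overlapped. Its log2 difference in yki3SA against control was -0.01 with an unadjusted 95% interval of -0.36 to 0.34, and its partner Hrd3 differed by -0.08 with an interval of -0.40 to 0.25. These intervals leave out the size of the rise seen in TER94. The difference of sip3 in ITP-i against yki3SA was -0.24, with an interval of -0.58 to 0.11 and that of Der-1 -0.17, with an interval of -0.52 to 0.18, and both intervals hold the size of the fall of TER94. The derlins Der-1 and Der-2 are membrane proteins of the same complex. Der-1 had 40.1, 35.4 and 51.1 CPM in ITP-i tubules, 43.1, 51.8 and 47.2 CPM in yki3SA tubules and 40.4, 50.5 and 51.1 CPM in control tubules. Der-2 had 34.7, 36.9 and 39.1 CPM in ITP-i tubules, 34.0, 42.9 and 38.7 CPM in yki3SA tubules and 35.2, 33.0 and 35.1 CPM in control tubules. Their groups overlapped. The lectin-type receptor CG6766 (ERLEC1 in mammals) and the second membrane ligase CG1317 (MARCH6 in mammals) were not called either, with log2 values of 0.05 and -0.24 in yki3SA against control and -0.05 and 0.07 in ITP-i against yki3SA. Neither were the conjugating enzyme eff and the ligase park.

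Summed over its 38 members, the degradation role reached 2385, 2408 and 2626 CPM of total counts in the ITP-i libraries, 3220, 3302 and 3571 CPM in the yki3SA libraries and 2235, 2301 and 2208 CPM in the control libraries. With TMM scaling the sums were 2538, 2517 and 2545 CPM in ITP-i libraries, 3042, 3020 and 2949 CPM in yki3SA libraries and 2543, 2421 and 2401 CPM in control libraries. On both scales the yki3SA sums lay above all others. All 115 members together took 1.101% to 1.43% of the counts in ITP-i, 1.38% to 1.65% in yki3SA and 1.11% to 1.31% in control libraries. For targeting and translocation the TMM-scaled sums were lowest in yki3SA, with 1344, 1376 and 1327 CPM in ITP-i libraries, 1105, 1195 and 1067 CPM in yki3SA libraries and 1340, 1192 and 1400 CPM in control libraries, where only yki3SA library 2 and control library 2 overlap. By total counts that role's yki3SA sums, 1169 to 1306 CPM, overlapped both other groups.

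**Figure D3:**
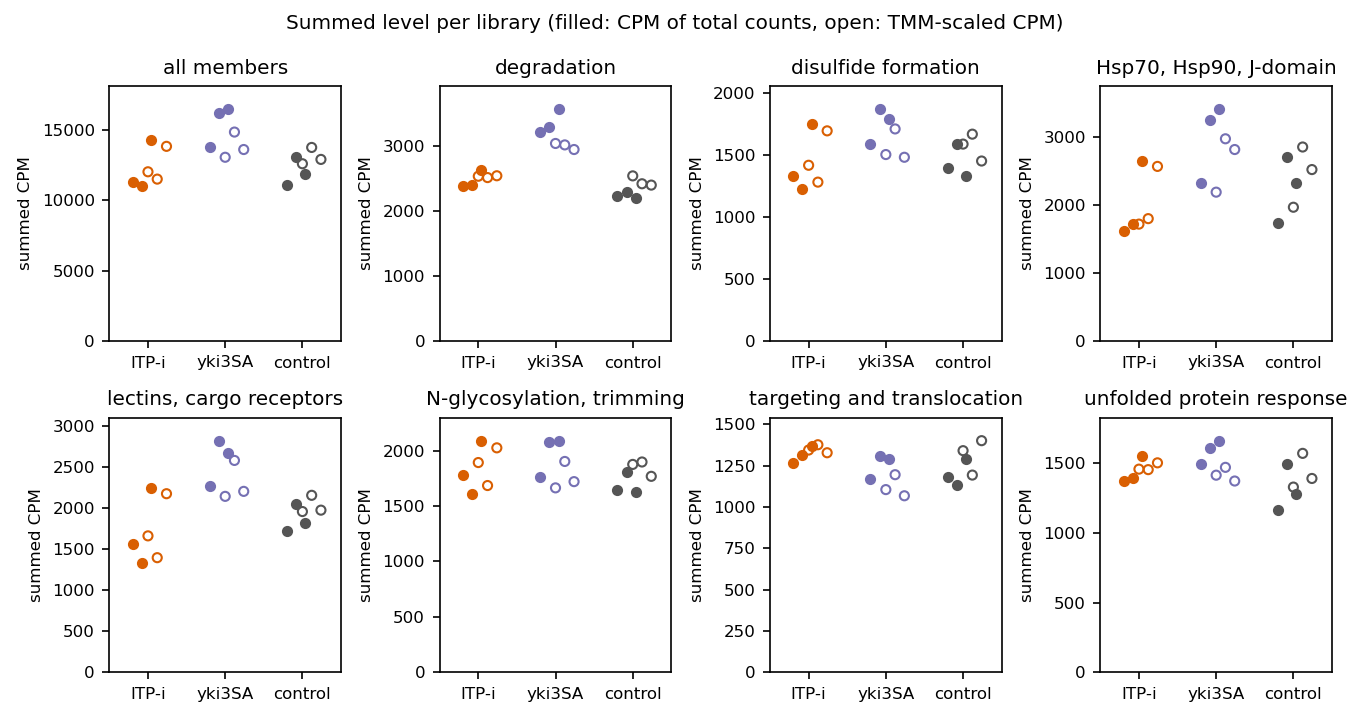
Summed CPM (y axis, from 0) over all members and over each of the 7 roles per library, with ITP-i, yki3SA and control from left to right (x axis). Filled points are CPM of total counts and open points are TMM-scaled CPM. The degradation sums of yki3SA, 2949 to 3571 CPM, lie above those of both other groups on each scale.

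Sec61alpha, TRAM and l(1)G0320 of the translocation genes had less transcript in yki3SA tubules. Of 11 tested members, these 3 fell (27.3%) and 0 rose in yki3SA against control, beside 14% and 16.2% of all genes (edgeR, with 1 higher at an unadjusted p under 0.05, and 0 higher by DESeq2 and limma-voom). Without yki3SA library 3 or control library 3 the fall was called in 1 of the 11, beside 11.1% of all genes lower in each of these fits. The same 3 rose in ITP-i against yki3SA, beside 10.6% of all genes, or 1 of them without ITP-i library 1, where 5.92% of all genes rose. In ITP-i against control 0 were called (0 also at an unadjusted p under 0.05 and by DESeq2 and limma-voom). Sec61alpha (FBgn0086357) is the channel-forming subunit of the translocon. Sec61alpha had 358, 404 and 334 CPM in ITP-i tubules, 221, 269 and 223 CPM in yki3SA tubules and 404, 369.6 and 375 CPM in control tubules. The 3 yki3SA libraries lay below the 6 others, and its log2 fold change was -0.69 ± 0.12 (adjusted p = 0.00276, edgeR) in yki3SA against control and 0.62 ± 0.12 (adjusted p = 0.00772) in ITP-i against yki3SA. TRAM is a membrane protein that helps nascent chains into the channel. TRAM had 95.9, 106 and 87.0 CPM in ITP-i tubules, 68.2, 68.0 and 61.2 CPM in yki3SA tubules and 87.3, 80.1 and 104 CPM in control tubules. It followed the same order (log2 -0.46 and 0.55, adjusted p = 0.0194 and 0.0135, edgeR). The gene l(1)G0320 is the alpha subunit of the translocon-associated TRAP complex. The l(1)G0320 gene had 209, 235 and 198 CPM in ITP-i tubules, 139, 159.6 and 141 CPM in yki3SA tubules and 217, 172 and 215 CPM in control tubules. Its log2 values were -0.46 and 0.55 (adjusted p = 0.0224 and 0.015, edgeR).

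The other 8 tested translocation genes were not called in yki3SA against control by the reported edgeR fit, which does not show that they were unchanged. Of the 11 tested, 7 had a negative and 4 a positive log2 value, with a median of -0.23 beside 0.07 over all genes. Sec61beta had 111, 102 and 118 CPM in ITP-i tubules, 139, 115 and 111 CPM in yki3SA tubules and 98.4, 89.9 and 107 CPM in control tubules. Sec61gamma had 27.9, 32.2 and 27.9 CPM in ITP-i tubules, 28.8, 26.4 and 29.1 CPM in yki3SA tubules and 26.6, 21.8 and 26.2 CPM in control tubules. Both small subunits had a positive log2 value in yki3SA against control (0.30 and 0.18) that did not pass the test. The TRAP subunits SsRbeta, CG5885 and Tapdelta differed by 0.13, -0.23 and -0.04 with no call. Sec63 differed by -0.27, with an unadjusted 95% interval of -0.53 to -0.006, CG8860 by -1.28 (-3.08 to 0.52) and Trp1 by 0.23. The intervals of CG5885 (-0.47 to 0.009), Sec63 and CG8860 hold the size of the falls of TRAM and l(1)G0320. Sec61alpha kept its calls without any 1 library. The yki3SA against control call of TRAM ended without yki3SA library 3 or control library 3 (log2 -0.43 to -0.38) and that of l(1)G0320 without yki3SA library 1 or 3 or control library 1 or 3 (log2 -0.45 to -0.43). Their ITP-i against yki3SA calls ended without ITP-i library 1 (log2 0.55) for TRAM and without ITP-i library 1 or 2 (log2 0.49 to 0.56) for l(1)G0320. By total counts, Sec61alpha stayed called lower in yki3SA than in control, while TRAM (log2 -0.17, adjusted p = 0.245 in edgeR) and l(1)G0320 (log2 -0.16, adjusted p = 0.28) did not.

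Of 13 tested genes of the unfolded protein response, 3 rose and 1 fell in yki3SA against control, and 1 rose and 1 fell in ITP-i against yki3SA. These shares are near or below those of all genes, 30.1% and 20.7% called in either direction. PEK (FBgn0037327, PERK in mammals) is the kinase that slows translation by phosphorylating eIF2alpha. PEK had 96.5, 114 and 92.1 CPM in ITP-i tubules, 53.4, 66.4 and 69.6 CPM in yki3SA tubules and 101, 152 and 111 CPM in control tubules. All yki3SA libraries were below all others, with log2 fold changes of -0.95 ± 0.17 (adjusted p = 0.00299, edgeR) in yki3SA against control and 0.68 ± 0.17 (adjusted p = 0.0218) in ITP-i against yki3SA. The second call ended without ITP-i library 1 or 2 or yki3SA library 1 (log2 0.59 to 0.71), and by total counts (log2 0.47, adjusted p = 0.0955). The transcription factor crc (ATF4 in mammals), whose translation rises when eIF2alpha is phosphorylated, had 163, 164 and 137 CPM in ITP-i tubules, 221, 178 and 180.0 CPM in yki3SA tubules and 124, 138 and 141 CPM in control tubules. Its transcript thus moved against that of PEK, by 0.52 in yki3SA against control (adjusted p = 0.0114, edgeR), a call that ended without control library 1 (log2 0.44), and 73.5% of its exon length overlaps another annotated gene.

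The ER-membrane protein wfs1 (wolframin) rose by 0.51 in yki3SA against control (adjusted p = 0.00951, edgeR), with 17.2, 15.6 and 14.8 CPM in ITP-i tubules, 18.5, 20.03 and 19.5 CPM in yki3SA tubules and 13.8, 13.6 and 13.4 CPM in control tubules. The Jun kinase bsk rose by 0.37 (adjusted p = 0.0162) and fell by 0.40 in ITP-i against yki3SA (adjusted p = 0.0171, edgeR). The first call ended without yki3SA library 1 or 2 or control library 1, 2 or 3 (log2 0.31 to 0.35), and the second without ITP-i library 1 or yki3SA library 1 or 2 (log2 -0.39 to -0.35). The kinases upstream of it, Ask1 and hep, were not called. The sensor Ire1 had 106, 126 and 84.4 CPM in ITP-i tubules, 82.7, 88.8 and 76.1 CPM in yki3SA tubules and 95.4, 73.2 and 81.0 CPM in control tubules. Its log2 difference was -0.01 in yki3SA against control, with an unadjusted 95% interval of -0.36 to 0.34. Its target Xbp1 had 653, 602 and 767 CPM in ITP-i tubules, 585, 643 and 542 CPM in yki3SA tubules and 571, 811 and 656 CPM in control tubules. Counts per gene do not measure the splicing by which Ire1 activates it. Neither Atf6, its proteases S1P and S2P, eIF2alpha nor the nutrient-sensing eIF2alpha kinase Gcn2 was called. Without yki3SA library 1, Gcn2 was called higher in yki3SA than in control (log2 0.52) and lower in ITP-i than in yki3SA (-0.74), and without ITP-i library 3 Ire1 was called higher in ITP-i than in yki3SA (0.50). The eIF2alpha values were 88.3, 88.7 and 86.9 CPM in ITP-i tubules, 106, 92.5 and 101 CPM in yki3SA tubules and 88.4, 76.7 and 81.6 CPM in control tubules (adjusted p = 0.0519 in yki3SA against control, edgeR).

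**Figure D4:**
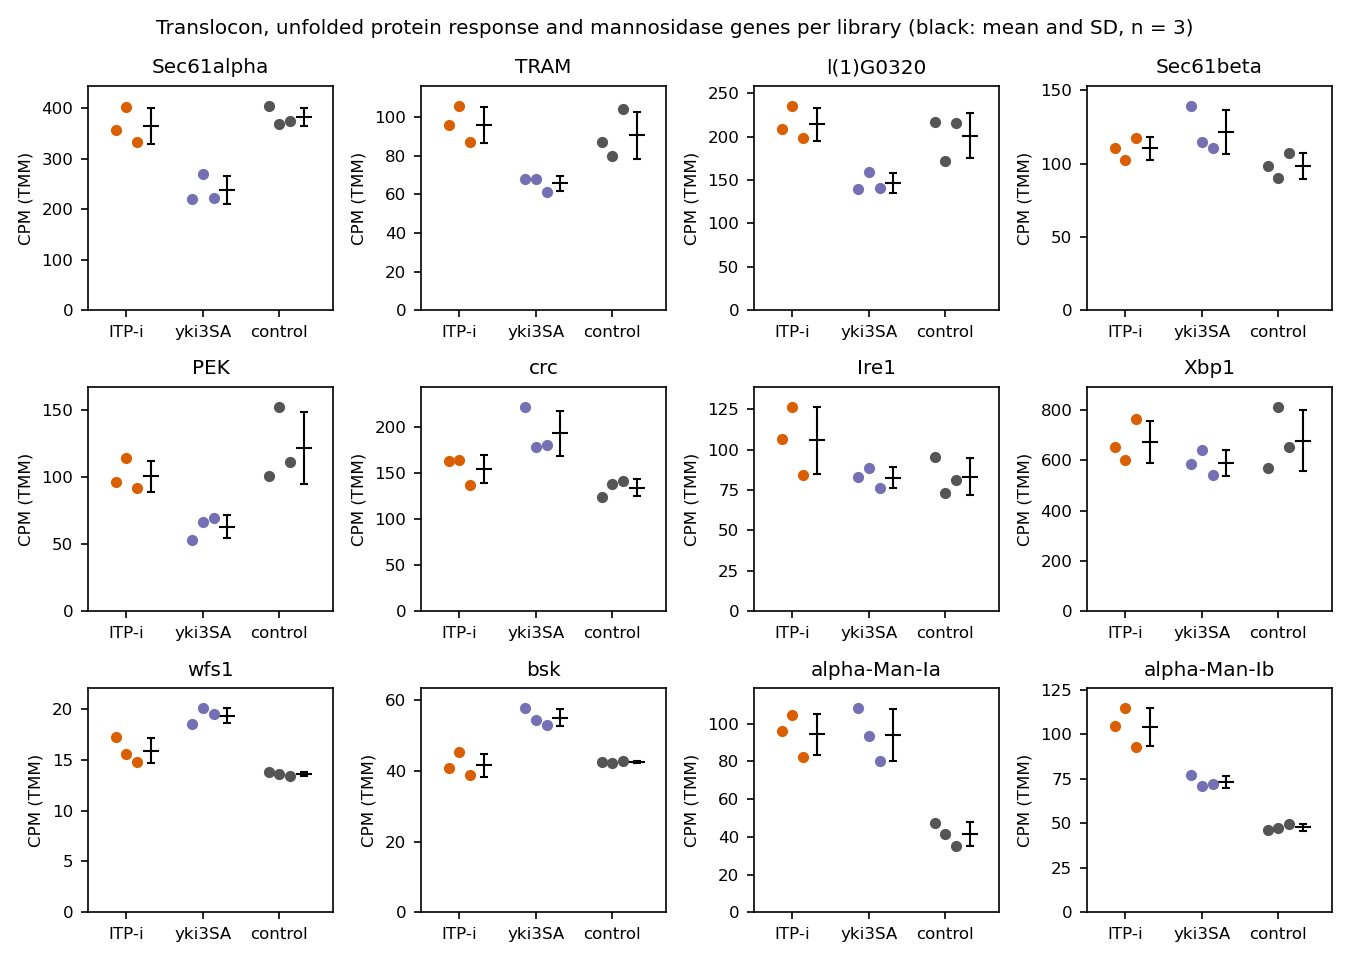
CPM with TMM scaling (y axis, from 0) of 4 translocation genes, 6 unfolded protein response genes and 2 mannosidases in each library, with ITP-i, yki3SA and control from left to right (x axis) and the mean and SD of 3 libraries in black. The yki3SA points of Sec61alpha (221 to 269 CPM) and PEK (53.4 to 69.6 CPM) lie below those of both other groups, and both tumour groups lie above control for the mannosidases alpha-Man-Ia and alpha-Man-Ib.

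In N-glycosylation, 2 mannosidases rose among 16 tested genes and the other 14 were not called in yki3SA against control. That is 12.5% higher, beside 16.2% of all genes. Class I alpha-mannosidases trim mannose from N-linked glycans in the ER and Golgi, a step in glycan maturation and in marking misfolded glycoproteins. The gene alpha-Man-Ia (FBgn0259170) had 96.3, 104 and 82.6 CPM in ITP-i tubules, 108, 93.6 and 80.4 CPM in yki3SA tubules and 47.6, 41.6 and 35.1 CPM in control tubules. The yki3SA and ITP-i libraries overlapped and stood above all control libraries, by 1.18 ± 0.15 in yki3SA (log2, adjusted p = 0.000443) and by 1.19 ± 0.15 in ITP-i (adjusted p = 0.000916, edgeR). Its relative alpha-Man-Ib had 105, 115 and 93.1 CPM in ITP-i tubules, 77.1, 70.9 and 71.9 CPM in yki3SA tubules and 46.0, 47.4 and 49.9 CPM in control tubules. The 3 groups were fully separated, with log2 fold changes of 0.62 in yki3SA against control, 0.51 in ITP-i against yki3SA and 1.12 in ITP-i against control (adjusted p = 0.00187, 0.00845 and 0.000135, edgeR). It was the 1 member called higher in both yki3SA against control and ITP-i against yki3SA. The ITP-i against control calls of both mannosidases were kept in all 22 alternative fits, the covariate fits included.

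None of the 7 oligosaccharyltransferase subunits was called in any comparison (edgeR, with 0 in yki3SA against control, 0 in ITP-i against yki3SA and 1 in ITP-i against control at an unadjusted p under 0.05, and 0 called by DESeq2 and limma-voom). The catalytic subunit Stt3B had 195, 157 and 232 CPM in ITP-i tubules, 188, 210.0 and 183 CPM in yki3SA tubules and 210.3, 217 and 213 CPM in control tubules. The glucosidase genes GCS1, GCS2alpha and GCS2beta, which remove the glucoses that lectin chaperones read, had log2 values of -0.28, -0.20 and -0.35 in yki3SA against control. None was called in the reported edgeR fit, and DESeq2 called 2 of the 9 trimming genes lower. In edgeR, GCS1 was called lower without control library 2 (log2 -0.40, adjusted p = 0.041) and GCS2beta without ITP-i library 2 (log2 -0.38, adjusted p = 0.0449). Uggt, which puts a glucose back on misfolded glycoproteins, and Edem1 and Edem2, which pass them to degradation, differed by 0.16, 0.21 and 0.02 with no call. The third mannosidase alpha-Man-Ic stayed under 5 CPM and varied widely within groups.

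Chaperones of the ER lumen were not called in any comparison by the reported edgeR fit. Hsc70-3 (FBgn0001218, BiP in mammals) is the Hsp70 of the ER and the usual marker of the unfolded protein response. Hsc70-3 had 387, 427 and 847 CPM in ITP-i tubules, 509, 842 and 823 CPM in yki3SA tubules and 504, 1018 and 754 CPM in control tubules. The spread within a group exceeded the differences between groups, and the log2 fold change was -0.07 ± 0.34 in yki3SA against control and -0.39 ± 0.35 in ITP-i against yki3SA (unadjusted 95% intervals -0.84 to 0.70 and -1.16 to 0.38). Changes within these intervals were not detectable at this spread. The ER Hsp90 Gp93 had 134, 163 and 217 CPM in ITP-i tubules, 202, 319 and 257 CPM in yki3SA tubules and 155, 293 and 213 CPM in control tubules. The exchange factors Grp170 and Sil1, which reload Hsc70-3 with ATP, had log2 values of -0.54 and -0.94 in ITP-i against yki3SA (adjusted p = 0.087 and 0.0519, edgeR). The lumenal J-domain genes P58IPK and shv, which stimulate Hsc70-3, had -0.32 and -0.70, also without a call. The unadjusted 95% intervals of Sil1 (-1.61 to -0.27), Grp170 (-0.99 to -0.084) and Gp93 (-1.18 to -0.016) lay below 0 in that comparison. With a replicate block Gp93 was called lower (log2 -0.59, adjusted p = 0.0392, edgeR). Without ITP-i library 3, 3 of these genes were called lower in ITP-i than in yki3SA, namely Grp170 (log2 -0.81, adjusted p = 0.0093), Sil1 (-1.17, adjusted p = 0.038) and shv (-1.28, adjusted p = 0.0047, edgeR). Grp170 and shv were then also called lower in ITP-i than in control tubules, by -0.63 and -1.02. Sil1 was also called in ITP-i against yki3SA without yki3SA library 1 or control library 2 (log2 -1.14 and -0.92). Among these 7 lumen and J-domain genes, 3 were lower in ITP-i than in yki3SA at an unadjusted p under 0.05, and DESeq2 and limma-voom called 1 of them lower. In yki3SA against control 1 had an unadjusted p under 0.05, in ITP-i against control 0 had, and DESeq2 and limma-voom called 0 in either.

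These genes varied together between libraries. Hsc70-3, P58IPK, shv and the disulfide enzyme CaBP1 were above their own mean over the 9 libraries in ITP-i library 3, yki3SA libraries 2 and 3 and control library 2, and below it in ITP-i libraries 1 and 2 and control library 1. Over the 9 libraries, the genes whose TMM-scaled levels were most like those of Hsc70-3 were P58IPK (Pearson r = 0.974), PICK1 (0.962), CG2126 (0.945), Alg7 (0.938) and CG3631 (0.936). The members next after P58IPK were CaBP1 (0.909), Der-1 (0.908), Gp93 (0.902), shv (0.890) and sip3 (0.882). These correlations describe 9 libraries that also differ in group and depth. The median coefficient of variation within a group was 30.7% in ITP-i, 18.8% in yki3SA and 22.4% in control libraries for the 7 ER-lumen chaperone genes, and 4.3% in ITP-i, 4.0% in yki3SA and 8.8% in control libraries for the TER94 group. Over all genes tested it was 15.7% in ITP-i, 15.7% in yki3SA and 16.2% in control libraries.

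**Figure D5:**
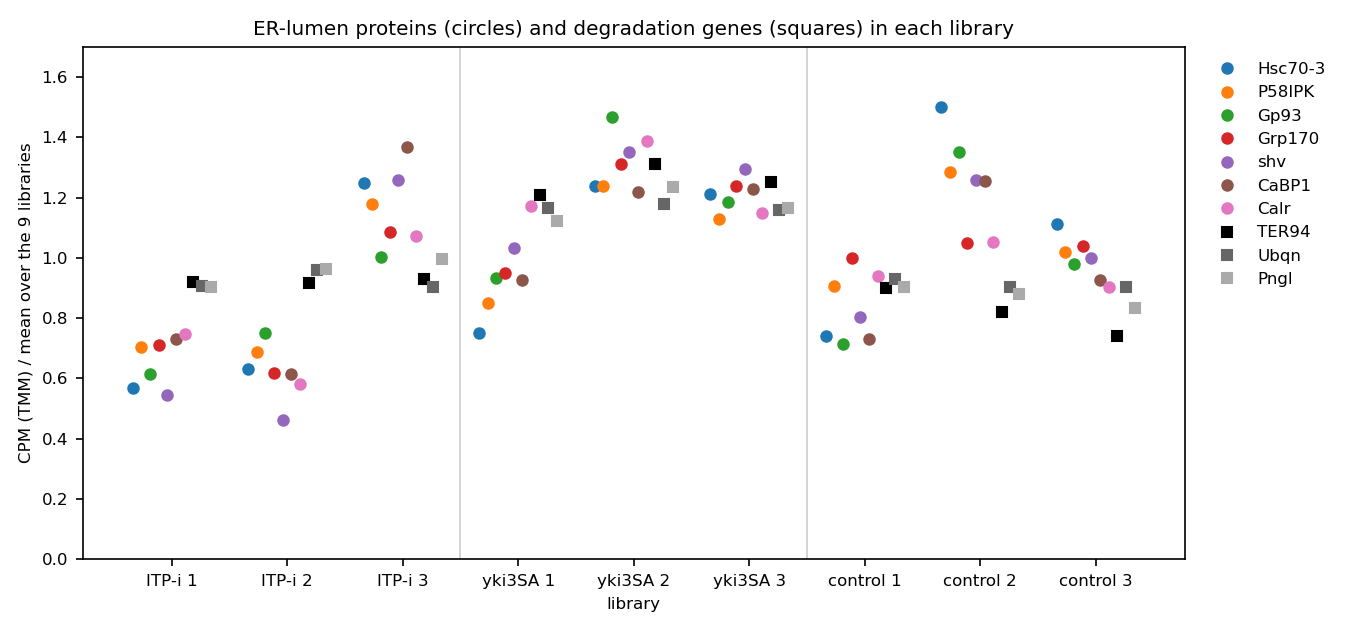
Level of 7 ER-lumen proteins (circles) and 3 degradation genes (squares) in each library, as TMM-scaled CPM divided by the gene's mean over the 9 libraries (y axis), with ITP-i, yki3SA and control libraries from left to right (x axis). The circles apart from Calr tend to move together between libraries and spread within each group, with Hsc70-3 at 387 to 847 CPM in ITP-i. Calr correlated less with Hsc70-3 (Pearson r = 0.68) and stands highest in the yki3SA libraries. The squares of TER94, Ubqn and Pngl are tight within a group and stand higher in yki3SA.

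Calreticulin (Calr) is the soluble lectin chaperone and per exon length the most abundant member in every group. Calreticulin had 806, 628 and 1158 CPM in ITP-i tubules, 1266, 1499 and 1240 CPM in yki3SA tubules and 1015, 1137 and 975 CPM in control tubules. Each yki3SA library was above every other library, but the log2 value of -0.63 in ITP-i against yki3SA missed the threshold (adjusted p = 0.0531, edgeR). It passed by DESeq2 (log2 -0.59, adjusted p = 0.0206), by limma-voom (log2 -0.67, adjusted p = 0.0348) and in edgeR without ITP-i library 3 (log2 -0.90, adjusted p = 0.00763). The membrane lectin Cnx99A (calnexin) had 374, 276 and 512 CPM in ITP-i tubules, 342, 477 and 406 CPM in yki3SA tubules and 452, 518 and 517 CPM in control tubules with overlapping groups. Of the 8 tested lectin and cargo-receptor genes, 2 rose in yki3SA against control and 1 fell in ITP-i against yki3SA. Of all genes, 16.2% rose and 10.1% fell in these comparisons, so the counts are near those shares. CG13887 (BAP31 in mammals), an export factor for membrane proteins, rose by 0.32 (adjusted p = 0.0365), and CG9175 (SEC12 or PREB in mammals), which loads GTP on the coat GTPase Sar1, rose by 0.49 (adjusted p = 0.0149, edgeR). CG5510 (VIP36 in mammals), a cargo lectin, fell by 0.41 in ITP-i against yki3SA (adjusted p = 0.048, edgeR), and 34.5% of its exon length overlaps Apc2. The call of CG13887 ended without ITP-i library 1 or 2, yki3SA library 1, 2 or 3 or control library 1, 2 or 3 (log2 0.24 to 0.36). That of CG9175 ended without yki3SA library 2 or 3 or control library 1 or 3 (log2 0.38 to 0.46), and that of CG5510 without ITP-i library 1 or 2, yki3SA library 1, 2 or 3 or control library 1, 2 or 3 (log2 -0.42 to -0.32). The cargo receptor ergic53 and the coat subunits Sec24AB and Sec24CD were not called.

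Of the 6 disulfide genes, 1 fell in yki3SA against control and 1 rose in ITP-i against yki3SA. Of all genes, 14% fell and 10.6% rose in these comparisons, so the counts are near those shares. The thioredoxin-domain protein prtp had 90.8, 90.6 and 91.0 CPM in ITP-i tubules, 77.1, 88.2 and 78.7 CPM in yki3SA tubules and 123, 98.9 and 108 CPM in control tubules. It fell by 0.43 in yki3SA against control (log2, adjusted p = 0.0132, edgeR), but not by total counts (log2 -0.14, adjusted p = 0.311). Of the isomerases, Pdi had 523, 489.9 and 595 CPM in ITP-i tubules, 598, 661 and 571 CPM in yki3SA tubules and 659.7, 666 and 589 CPM in control tubules. ERp60 had 682, 587 and 804 CPM in ITP-i tubules, 683, 769 and 640.2 CPM in yki3SA tubules and 686, 719.9 and 608 CPM in control tubules. Neither gene separated the groups. The oxidase Ero1L, which recharges Pdi, had 31.1, 37.6 and 35.1 CPM in ITP-i tubules, 31.4, 42.9 and 42.0 CPM in yki3SA tubules and 29.4, 30.1 and 32.7 CPM in control tubules. None of these 3 was called, although Ero1L was higher in yki3SA than in control without yki3SA library 1 (log2 0.43, adjusted p = 0.0349, edgeR). Windbeutel (wbl) is an ER protein known for its part in patterning by ovarian follicle cells. Windbeutel had 0.532, 0.510 and 3.06 CPM in ITP-i tubules, 0, 0.0224 and 0.117 CPM in yki3SA tubules and 0.124, 0 and 0.181 CPM in control tubules. The call of wbl in ITP-i against yki3SA (adjusted p = 0.0302, edgeR) rests on few counts and ended without ITP-i library 1 or 3 or yki3SA library 1 or 2 (log2 3.28 to 5.05). Of 19 ovary markers, 10 rose in the same comparison, and their part in it was not tested.

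The cytosolic chaperones moved singly. CG10973 (HSPBP1 in mammals) releases nucleotide from Hsp70. CG10973 had 6.31, 7.73 and 8.37 CPM in ITP-i tubules, 11.1, 14.7 and 14.4 CPM in yki3SA tubules and 6.29, 6.68 and 7.69 CPM in control tubules. Its yki3SA libraries lay above all others, with log2 fold changes of 0.96 ± 0.18 (adjusted p = 0.00394) in yki3SA against control and -0.84 ± 0.18 (adjusted p = 0.0115, edgeR) in ITP-i against yki3SA, the second ending without ITP-i library 1 (log2 -0.74). The J-domain protein Droj2 had 249, 275 and 368 CPM in ITP-i tubules, 422, 563 and 543 CPM in yki3SA tubules and 274, 362 and 416 CPM in control tubules. It was called lower in ITP-i than in yki3SA (log2 -0.78, adjusted p = 0.0234, edgeR), but not without ITP-i library 1 or 2 or yki3SA library 2 or 3 (log2 -0.72 to -0.66). In yki3SA against control its log2 value was 0.54 (unadjusted 95% interval 0.09 to 0.98), with no call in the reported fit. Droj2 was called higher there with a replicate block (adjusted p = 0.00922, edgeR), by total counts (adjusted p = 0.0163) and without ITP-i library 3 (adjusted p = 0.0449). The small heat-shock protein gene l(2)efl fell by 0.76 in yki3SA against control (log2, adjusted p = 0.0344, edgeR), a call lost without ITP-i library 1, yki3SA library 1 or 2 or control library 2 or 3 (log2 -0.81 to -0.65), and by total counts (log2 -0.47, adjusted p = 0.193). Hsp110, Csp, CG3061 and CG7945 were not called.

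The low-level Hsp70 relatives Hsc70-2 and Hsc70-1 were highest in ITP-i tubules. Hsc70-2 had 3.83, 2.65 and 5.04 CPM in ITP-i tubules, 0.573, 0.940 and 0.385 CPM in yki3SA tubules and 1.09, 1.48 and 0.663 CPM in control tubules. Hsc70-1 had 1.06, 2.35 and 1.697 CPM in ITP-i tubules, 0.682, 0.112 and 0.134 CPM in yki3SA tubules and 0.274, 0.564 and 0.392 CPM in control tubules. In ITP-i against yki3SA, the log2 fold change was 2.60 for Hsc70-2 (adjusted p = 0.00508) and 2.48 for Hsc70-1 (adjusted p = 0.0389, edgeR), and in ITP-i against control Hsc70-2 was also called (1.83, adjusted p = 0.0304). The call of Hsc70-1 ended without ITP-i library 1, 2 or 3, yki3SA library 2 or 3 or control library 3 (log2 2.10 to 2.73), and the last of Hsc70-2 without ITP-i library 1 or 3 or control library 1 or 3 (log2 1.56 to 1.83). The heat-inducible copies Hsp70Aa, Hsp70Ab, Hsp70Ba, Hsp70Bb, Hsp70Bbb and Hsp70Bc are near-identical, so reads cannot be assigned with certainty. Each stayed under 6 CPM in every library and none was called. For Hsp70Ba the log2 value was 2.61 in yki3SA against control (adjusted p = 0.106, edgeR). In ITP-i against control it was 3.13 (unadjusted 95% interval 0.63 to 5.62), also without a call.

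Set side by side, 11 members were called higher in yki3SA than in control and lower in ITP-i than in yki3SA, namely TER94, Ufd1, p47, Pngl, Ubqn, SkpA, STUB1, sordd1, CG40045, bsk and CG10973. Of these 11, 9 are degradation genes. Another 4 were called lower and then higher, namely Sec61alpha, TRAM, l(1)G0320 and PEK. Since yki3SA libraries enter both comparisons, opposite signs in the 2 are not independent of each other. The share of all genes with the same pairs of calls was not counted. Whether 11 and 4 members are more than among other genes therefore cannot be told. None of these 15 was called in ITP-i against control, where their log2 values ran from -0.27 (PEK) to 0.17 (TER94). The 5 members that were called in ITP-i against control, all higher, were alpha-Man-Ia, alpha-Man-Ib, sordd2, CG5823 and Hsc70-2.

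Genes that work next to the pathway but lie outside it were counted in the same fit. Of 12 tested genes of the signal recognition particle, its receptor and the signal peptidase, which bring nascent chains to the translocon and cut their signal, 6 rose in yki3SA against control and 4 fell in ITP-i against yki3SA. The rises were of Srp9 (log2 0.66), Srp14 (0.76), Srp19 (0.37), Srp54 (0.35), Srp68 (0.50) and SrpRalpha (0.29), beside 16.2% of all genes higher, and the other 6 were not called. The 4 falls stand beside 10.1% of all genes lower. Srp14 had 9.50, 7.89 and 10.7 CPM in ITP-i tubules, 17.6, 14.5 and 15.9 CPM in yki3SA tubules and 8.46, 11.0 and 8.89 CPM in control tubules. Among 10 outputs of the unfolded protein response outside the list, Irbp18, a bZIP partner protein (log2 1.28, adjusted p = 0.000509 in edgeR), and the anti-death ER protein BI-1 (log2 0.45, adjusted p = 0.0259) rose in yki3SA against control. Both were lower in ITP-i than in yki3SA (-0.65 each), and the translation repressor Thor was higher (0.72). The ER trophic factor Manf had 59.7, 40.6 and 80.7 CPM in ITP-i tubules, 71.8, 81.6 and 78.6 CPM in yki3SA tubules and 52.6, 56.7 and 54.8 CPM in control tubules without a call. Of the 4 COPII genes left out of the list, Sec23 (0.33) and Sec31 (0.47) rose in yki3SA against control, and Sec31 was lower in ITP-i than in yki3SA (-0.59). Beside these counts and those of the outputs, 16.2% of all genes were higher in yki3SA against control. In ITP-i against yki3SA, 10.6% were higher and 10.1% lower. None of the 6 tested heat-shock genes left out, Hsp23, Hsp26, Hsp27, Hsp68, Hsp83 and Hsc70-4, was called in any comparison, with Hsc70-4 nearest in ITP-i against yki3SA (log2 -0.45, adjusted p = 0.082 in edgeR).

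The 12 members not tested were near or at 0. SkpE, SkpF, Gint3 and Roc1b had no count in any library, and the exons of Gint3 and Roc1b lie wholly within those of CG42306 and Cdc5, where reads shared between genes could not be assigned. SkpC, SkpD, CG10694, CG15800, CG34308, Ubc87F, Hsp70Bbb and Cnx14D, a second calnexin, stayed under 0.5 CPM in every library. Of all 115 members, 45 share exon sequence with another annotated gene and 10 do so over more than 20% of their length, and the strand setting of the counting is not given in the sources used here. Per kilobase of exon, the highest mean levels were those of Calr, with 515 CPM in ITP-i, 796 CPM in yki3SA and 621 CPM in control tubules, followed in each group by ERp60, Xbp1 and Pdi.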

How the data were processed

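The authors deposited raw counts per gene, whole numbers in 1 column for each of the 9 libraries. TopHat, Cufflinks, HTSeq and DESeq are named in the submitters' processing notes, with no version or role, and the genome build, the annotation and the strand setting are not given there or elsewhere in the sources. A symbol was found for 17552 gene identifiers and for 59 it was not, and overlaps between exons come from the Ensembl release 115 annotation.

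Counts were fitted in R 4.3.3 with edgeR 4.0.16, after filterByExpr and TMM scaling, in 1 model of all 9 libraries (6 residual degrees of freedom). Its quasi-likelihood test was adjusted by Benjamini-Hochberg over 10253 genes and called under 0.05, and it was tested on simulated data. Log2 fold changes use a prior count of 0.125, and 95% intervals use the fit's standard errors and are not adjusted. Alternatives were DESeq2 1.42.0, limma-voom (limma 3.58.1), other scalings and filters, marker covariates, a replicate block and fits without single libraries. Replicate numbers were not used to pair the libraries in the main fit. In their deviations from the group means, same-numbered libraries correlated at -0.08 to 0.17 and differently numbered ones at -0.26 to 0.14. These values do not settle whether the libraries are paired. Plots were drawn with matplotlib 3.10.9 (Python 3.11.15).

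The pathway and its members, the lists, roles, subgroups and covariates were chosen with earlier results of these data known. Named members are 51 taken by a rule (fixed anchors, the 3 smallest p per role in yki3SA against control and in ITP-i against yki3SA, and every call of at least 2-fold) and 10 further called members added after their values were seen, and uncalled members are named to complete a role.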

Additional observations from a re-analysis of the deposited data

How the results depend on the processing

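The counts of members called that follow are given as higher and lower in yki3SA against control, then in ITP-i against yki3SA, then in ITP-i against control, where the fit as reported gave 22 and 6, 9 and 13, and 5 and 0. DESeq2 gave 20 and 8, 12 and 15, and 7 and 0, and total-count scaling gave 46 and 2, 7 and 32, and 7 and 0. A fold of at least 2 gave 1 and 0, 3 and 0, and 3 and 0, by construction fewer. Leaving out both tumour libraries numbered 3 gave 17 and 3, 5 and 11, and 2 and 2, beside 13.0% and 11.9%, 7.17% and 5.97%, and 5.73% and 3.68% of all genes. The fat body covariate gave 0 and 0, 0 and 0, and 3 and 0, and the gut covariate 0 and 0, 0 and 0, and 4 and 0. The members' median log2 values were 0.24 and 0.30 with these covariates in yki3SA against control and -0.24 and -0.21 in ITP-i against yki3SA, beside 0.16 and -0.09 without. Both marker levels were lowest in the yki3SA libraries, so these fits cannot separate marker level from group. The cause was not tested. Leaving out 1 library in turn gave 13 to 22 higher and 3 to 7 lower, 3 to 9 higher and 4 to 17 lower, and 2 to 6 higher and 0 to 2 lower. Of all genes these fits called 9.89% to 16.1% higher and 10.7% to 14.1% lower in yki3SA against control. In ITP-i against yki3SA they called 5.92% to 10.8% and 3.87% to 8.69%, and in ITP-i against control 4.02% to 6.10% and 2.09% to 4.30%. Counts under limma-voom, DESeq2 size factors, upper-quartile scaling, no filter, a minimum of 5 CPM, robust dispersions and fits of only the groups compared stayed within 1.5 times. A replicate block gave 22 and 6, 8 and 14, and 4 and 0, beside 16.7% and 14.4%, 11.5% and 10.8%, and 6.84% and 4.25% of all genes. Of the 9 libraries, 6 correlated best with their own number, a hint from the data and not from the design.

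Apart from the covariate fits and the 2-fold threshold, 14 of 28, 6 of 22 and 2 of 5 calls were kept in every other alternative. Over 4016 alternative values of named members, 3644 kept their side of the threshold and direction, 321 lost a call, 47 gained one and 4 reversed, and among those kept 188 changed sign with no call in either fit. The reversals arose under the fat body covariate, in yki3SA against control for TRAM (0.031), l(1)G0320 (0.072) and Ufd1 (-0.058) and in ITP-i against yki3SA for Ufd1 (0.103).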
